A study of Mus musculus with 4 samples.

Results

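The genes described are 10 regulators of branched actin, Was, Wasf2, Wasl, Wipf1, Arpc2, Arpc3, Actr2, Actr3, Cttn and Hcls1, taken by gene name from the 23756 genes of the deposited table. All 10 were found, each in 1 row. RNA-seq was performed on 32Dcl3-Abl1ko cells. The parental 32Dcl3 line comes from mouse myeloid cells that depend on interleukin 3 (IL-3), and its Abl1 gene, which encodes a tyrosine kinase, was targeted with CRISPR/Cas9 from a lentiviral vector. Cells of 1 group were kept with IL-3 (Abl1ko/IL3+, 2 libraries) and cells of the other were growing without it after IL-3 had been withdrawn (Abl1ko/IL3-, 2 libraries). The Abl1 knockout is thus shared by both groups. Per the paper, IL-3 was withdrawn gradually, and the cells without it are those that had become independent of it. The groups therefore differ in this outgrowth as well as in IL-3, and the 2 cannot be told apart. The 32Dcl3-Abl1 control group was not analysed here. The study describes single clones selected with puromycin and populations from different guide RNAs, and no source ties a clone or a guide to a library. The submitters call the replicates biological, with 2 per group, so every error below rests on 2 libraries. One label field calls the cells pre-B cells and another murine bone marrow cells.

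Branched actin networks are built by the ARP2/3 complex, a stable assembly whose actin-related subunits, ARP2 (Actr2) and ARP3 (Actr3), form the first subunits of a new filament on the side of an old one, held by scaffold subunits such as ARPC2 and ARPC3. The complex is switched on by nucleation-promoting factors of the WASP family: WASP (Was) in blood cells, its widely expressed relative N-WASP (Wasl), and WAVE2 (Wasf2), which works downstream of Rac. WIP (Wipf1) binds WASP and protects it from degradation. Cortactin (Cttn) and its blood-cell relative HS1 (Hcls1) bind ARP2/3 and filaments and stabilize the branches. Loss of WASP causes Wiskott-Aldrich syndrome, an immunodeficiency with small platelets.

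The promoters of 4 of these genes are shown first, because they include 3 genes that were lower in both Abl1ko/IL3- libraries (Was, Hcls1 and Arpc2) and 1 whose groups overlapped (Arpc3). The sequences are those of RefSeq on GRCm38.p6, from 250 bases before to 50 after a start listed by RefSeq, read 5′ to 3′ on the strand of the gene. That start need not be the start of the gene in the deposited annotation. For Arpc2, which begins there at 74236084, the whole window lies inside the gene. Capitals mark GGAAGT on either strand, a core that ETS family factors can bind. Was lies on the minus strand at chrX:8090442-8090741, Hcls1 on the plus strand at chr16:36934733-36935032, Arpc2 on the plus strand at chr1:74236267-74236566 and Arpc3 on the plus strand at chr5:122391628-122391927.
Was: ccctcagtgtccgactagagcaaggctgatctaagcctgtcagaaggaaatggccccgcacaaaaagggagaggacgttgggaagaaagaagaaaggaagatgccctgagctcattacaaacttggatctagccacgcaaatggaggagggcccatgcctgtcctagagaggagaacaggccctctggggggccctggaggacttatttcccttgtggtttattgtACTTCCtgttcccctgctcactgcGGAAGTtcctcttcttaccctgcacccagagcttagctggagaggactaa
Hcls1: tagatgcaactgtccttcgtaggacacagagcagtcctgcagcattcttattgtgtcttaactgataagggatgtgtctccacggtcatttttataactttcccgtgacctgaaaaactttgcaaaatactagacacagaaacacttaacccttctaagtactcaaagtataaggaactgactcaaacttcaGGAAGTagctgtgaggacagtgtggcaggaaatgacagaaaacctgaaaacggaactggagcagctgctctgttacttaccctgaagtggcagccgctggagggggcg
Arpc2: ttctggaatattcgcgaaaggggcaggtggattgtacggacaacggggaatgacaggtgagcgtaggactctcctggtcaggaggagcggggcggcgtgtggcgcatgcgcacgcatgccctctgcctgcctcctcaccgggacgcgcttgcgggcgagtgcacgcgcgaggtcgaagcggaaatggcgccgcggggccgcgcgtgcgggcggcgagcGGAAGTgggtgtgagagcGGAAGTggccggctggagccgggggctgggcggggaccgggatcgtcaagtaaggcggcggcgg
Arpc3: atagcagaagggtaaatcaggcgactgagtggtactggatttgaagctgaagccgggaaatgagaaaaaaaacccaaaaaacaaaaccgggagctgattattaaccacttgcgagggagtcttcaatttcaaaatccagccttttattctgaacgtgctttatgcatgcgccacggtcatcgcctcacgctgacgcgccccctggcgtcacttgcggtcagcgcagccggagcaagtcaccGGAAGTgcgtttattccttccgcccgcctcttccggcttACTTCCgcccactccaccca

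A promoter was matched for 9 of the 10 genes, with Cttn the exception, and where RefSeq lists several starts the first was used. GGAAGT was found in 8 of the 9 windows, Wasl being the one without it. It was found in 24.1% of the first promoters of 27025 genes, and in 33.4% of those of 4870 genes with a mean of 5 FPKM or more in these libraries. The longer form CCGGAAGT was in 3 of the 9, those of Arpc3, Actr2 and Actr3, against 4% of all genes and 11.1% of the genes at 5 FPKM or more. The form AGGAAGT was in 2 of the 9, Was and Hcls1, against 9.57% and 10.5%. Each longer form contains the shorter one, so these counts overlap. The motif was chosen after the sequences were seen, and a match describes letters only. The 2 genes of blood cells, Was and Hcls1, had 5 and 6 CpG dinucleotides in their windows, and the other 7 had between 21 and 40. The median was 7 over the 27025 genes and 21.5 over the 4870 genes at 5 FPKM or more. These values hold for first starts only. Further starts listed for Wipf1 had windows with 4 and 1 CpG, and the latter window also held AGGAAGT.

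The libraries held between 48953174 and 60382588 counts, so 3 counts, taken as the limit of detection by counting error alone, stood for 0.0497 to 0.0613 CPM (counts scaled to the library total). Abl1, the targeted gene, was read in every library, with 1322 and 2222 counts in the presence of IL-3 and 1544 and 2256 in its absence. An edit of a few bases need not lower such counts, so they do not check the knockout. The summed FPKM of 9 markers of myeloid progenitors was 841 and 741 with IL-3, against 497 and 373 without it, lower in both Abl1ko/IL3- libraries. The largest part in each library was that of the granule gene Mpo, with 528 and 346 FPKM with IL-3, against 227 and 135 without it. Only Mpo and Spi1 were lower in both Abl1ko/IL3- libraries, and the groups overlapped for the other markers of this list. Ctsg, for example, had 92.7 and 204 FPKM with IL-3, against 104 and 94.2 without it. Of the genes of pre-B cells, Rag1 had at most 4 counts and Vpreb2 at most 8, Igll1 had 12 to 57, Vpreb1 57 to 157, Cd79a 43 to 635 and Cd79b 607 to 1044 counts. Kit, a receptor of progenitors and mast cells and 1 of the 9, had at most 4 counts. Lists of markers of other cells differed between the libraries, replicates of 1 group included. The summed FPKM of 8 maturing granulocyte markers came to 596 and 177 in the replicates with IL-3, against 792 and 4162 in those without it. That of 6 mast cell or basophil markers was 992 and 149 with IL-3, against 287 and 259 without it. That of 6 erythroid markers was 181 and 6932 with IL-3, against 3612 and 1877 without it. In the granulocyte, mast cell and erythroid lists every marker was in the table and had 10 counts or more in at least 1 library. The 5 fibroblast markers summed to 0.407 to 0.537 FPKM. The part of such cells in the results below was not tested.

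In Abl1ko/IL3- cells, 4 of the 10 genes, Was, Wasf2, Arpc2 and Hcls1, stood below both Abl1ko/IL3+ libraries in both replicates, with fitted differences between the groups of 1.53-fold to 1.83-fold, and the groups overlapped for the other 6. The gap from the lower library with IL-3 to the higher one without it was smaller, from 1.35-fold for Wasf2 to 1.52-fold for Was in normalized CPM. The share of mitochondrial counts also lay apart between the groups, at 2.55% and 1.28% with IL-3, against 4.01% and 3.31% without it. So did the sum of the 9 myeloid progenitor markers, which was lower without IL-3. The sum of the 8 maturing granulocyte markers was higher without it, at 596 and 177 FPKM with IL-3, against 792 and 4162 without it. Of these markers Ngp and Lcn2 overlapped between the groups, and the rest were higher in both Abl1ko/IL3- libraries. The part of any of these in the differences was not tested. With p-values of edgeR's quasi-likelihood test adjusted by Benjamini-Hochberg over all genes, none of the 10 passed the threshold of 0.05, where 0 of 16535 genes passed (0%), and the adjusted p-values of the 10 lay between 0.841 and 0.999. None of the 10 had an unadjusted p-value under 0.05, which 5.91% of all genes tested had (3.36% with a lower and 2.56% with a higher level without IL-3). DESeq2's Wald test called none of them either, against 1.64% of all genes. Of all genes tested, 17.9% were lower in both Abl1ko/IL3- libraries than in either Abl1ko/IL3+ library, and 19.4% were higher in both, or 37.3% in either direction. Among the 9246 genes with a mean of 10 CPM or more, a level that 9 of the 10 genes reached, the shares were 20.3% and 15.2%. The median log2 fold change of the 10 genes was -0.20, with 6 negative and 4 positive values. That of all genes tested was -0.027, with 8589 of the 16535 negative, and that of the 9246 genes at 10 CPM or more was -0.074. Without Abl1ko/IL3+ replicate 1 the median of the 10 was 0.017 and without Abl1ko/IL3- replicate 1 it was 0.0018, so its sign depended on each of these libraries. In bulk RNA, fewer cells of a type and less of a transcript per cell cannot be told apart.

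**Figure D1:**
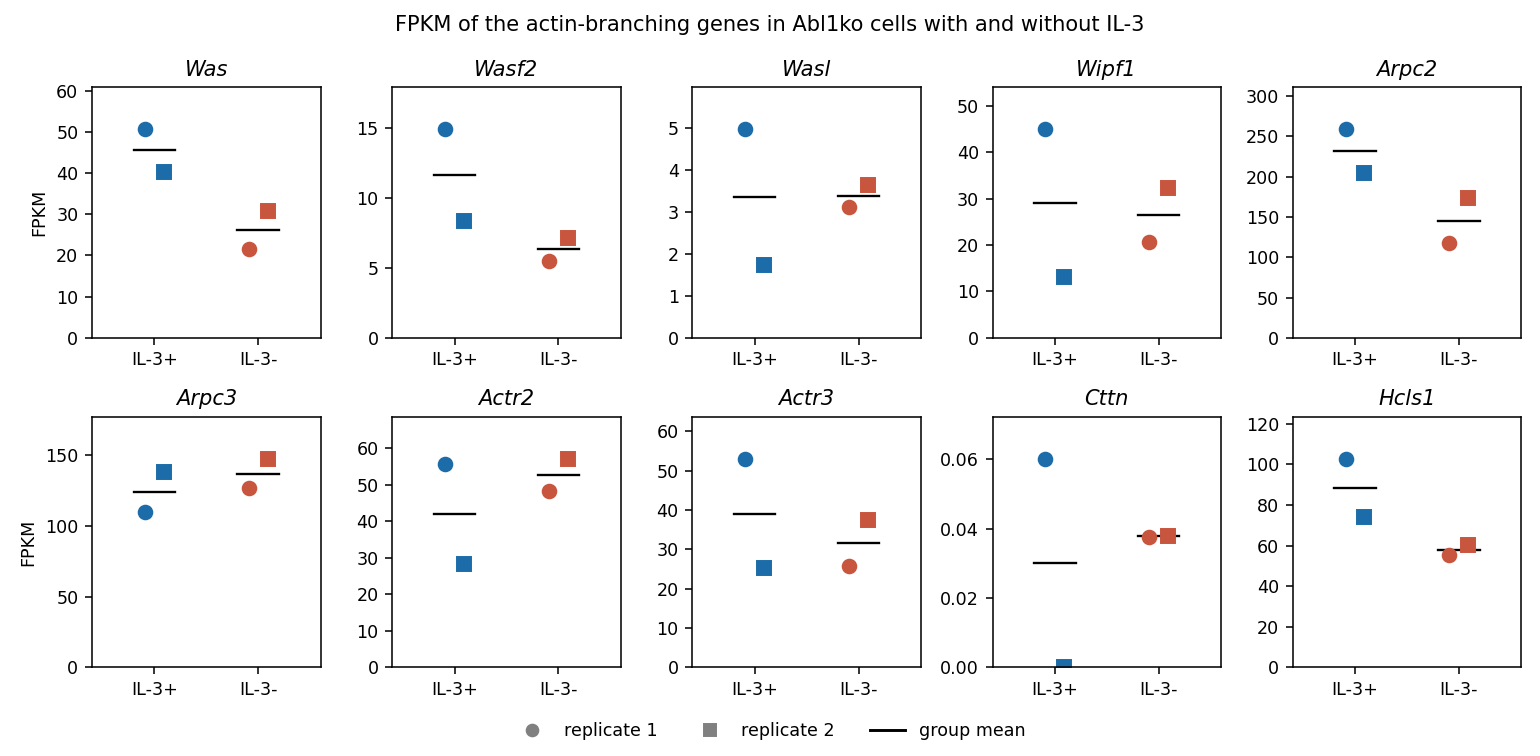
FPKM of each of the 10 genes (vertical axes, starting at 0, a scale of its own for each gene) in Abl1ko cells with and without IL-3. Circles are replicate 1, squares replicate 2 and bars the mean of 2 libraries. For Was, Wasf2, Arpc2 and Hcls1 both libraries without IL-3 lie below both with IL-3. For the other 6 the 2 libraries with IL-3 lie on either side of a library without it.

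The levels of the 10 genes, compared per length as FPKM, ran from 189 ± 59.4 (SD, n = 4 libraries) for Arpc2 to 0.0339 ± 0.0249 for Cttn. Between them, in falling order, came Arpc3 with 131 ± 16.2, Hcls1 with 73.3 ± 21.2, Actr2 with 47.3 ± 13.3, Was with 35.8 ± 12.5, Actr3 with 35.3 ± 13.1, Wipf1 with 27.7 ± 14.0, Wasf2 with 9.01 ± 4.14 and Wasl with 3.36 ± 1.33. Of the 9 neighbours in this order, 6 had ranges that overlapped over the 4 libraries. The ranges were separate between Arpc3 and Hcls1, between Wasf2 and Wasl, and between Wasl and Cttn. Arpc2 and Arpc3 stood above 98.6% and 98.2% of the 23756 genes by mean FPKM, and Cttn above 18.3%.

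Was, the WASP gene (ENSMUSG00000031165, GRCm38 chromosome X from 8081453 to 8090498, minus strand), had 50.7 and 40.3 FPKM with IL-3 (8097 and 6517 counts), against 21.6 and 30.7 FPKM without it (2882 and 4585 counts). The lower of the libraries with IL-3 was 1.52 times the higher one without it on the scale of normalized CPM. The log2 fold change (Abl1ko/IL3- over Abl1ko/IL3+) was -0.82 (standard error, SE, 0.32, 95% interval -1.64 to 0.0047, edgeR adjusted p = 0.841). The replicates with IL-3 were 1.05-fold apart and those without it 1.31-fold in normalized CPM. The direction was the same under all 12 alternatives tried, from -1.02 to -0.64.

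Wasl, the gene of the widely expressed N-WASP (chromosome 6 from 24613805 to 24665009, minus strand), had 4.96 and 1.74 FPKM with IL-3 (2053 and 730 counts), against 3.11 and 3.64 FPKM without it (1074 and 1410 counts). Both libraries without IL-3 lay between those with it. The log2 fold change was 0.045 (SE 0.52, 95% interval -1.28 to 1.37, edgeR adjusted p = 0.999), so a change of up to 2.59-fold upwards was within the error, and it was -0.45 without Abl1ko/IL3+ replicate 2 and -0.0086 without Abl1ko/IL3- replicate 2. As a share of the FPKM of Was and Wasl together, Was held 91.1% and 95.9% with IL-3, against 87.4% and 89.4% without it. The mean was 93.5% ± 3.38 (SD, n = 2) with IL-3 and 88.4% ± 1.40 (SD, n = 2) without it, a difference of -5.07 percentage points (exact permutation test, two-sided, p = 0.333, the smallest that 2 against 2 libraries allow). Was was thus the more abundant of the pair in every library, by 6.95-fold to 23.2-fold.

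Wasf2, which encodes the WAVE2 subunit through which Rac reaches ARP2/3 (chromosome 4 from 133130505 to 133199756, plus strand), had 15.0 and 8.39 FPKM with IL-3 (6272 and 3565 counts), against 5.51 and 7.17 FPKM without it (1931 and 2817 counts). The groups did not overlap, but the libraries with IL-3 were 1.48-fold apart from each other in normalized CPM, more than the gap of 1.35-fold between the groups. The log2 fold change was -0.87 (SE 0.36, 95% interval -1.79 to 0.043, edgeR adjusted p = 0.85), and it was -0.55 without Abl1ko/IL3+ replicate 1.

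Wipf1, the partner that protects WASP (chromosome 2 from 73429610 to 73529734, minus strand), had 45.0 and 13.1 FPKM with IL-3 (17785 and 5240 counts), against 20.6 and 32.2 FPKM without it (6787 and 11910 counts). Its Abl1ko/IL3+ libraries were 2.86-fold apart in normalized CPM, with both Abl1ko/IL3- libraries between them, and this was the widest gap within a group among the 9 genes other than Cttn. The log2 fold change was -0.10 (SE 0.58, 95% interval -1.59 to 1.39, edgeR adjusted p = 0.996). Its sign changed under 6 of 12 alternatives, with 0.86 without Abl1ko/IL3+ replicate 1 and 0.14 without Abl1ko/IL3- replicate 1. The ratio of Wipf1 to Was in FPKM was 0.887 and 0.325 with IL-3, against 0.951 and 1.05 without it.

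**Figure D2:**
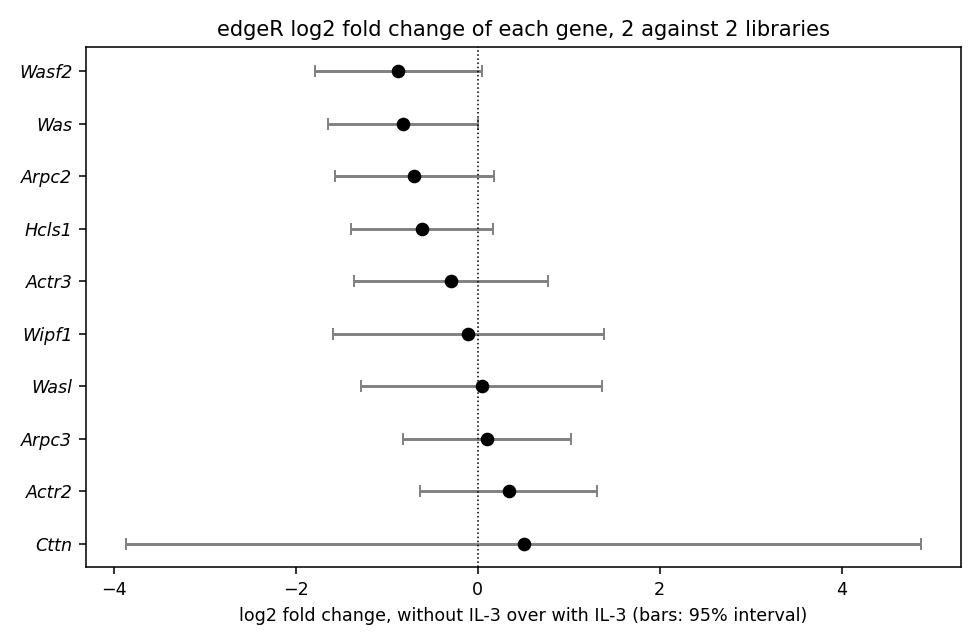
Log2 fold change of each gene (horizontal axis, without IL-3 over with IL-3, edgeR) with its 95% interval, over 2 against 2 libraries. Every interval includes 0, with that of Was reaching from -1.64 to 0.0047 and that of Cttn from -3.87 to 4.88.

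Within the ARP2/3 complex, 1 of the 4 subunit genes, Arpc2, had groups that did not overlap, against 37.3% of all genes tested. Arpc2, a scaffold subunit that contacts the mother filament (chromosome 1 from 74236084 to 74268209, plus strand), had 259 and 205 FPKM with IL-3 (35300 and 28272 counts), against 117 and 173 FPKM without it (13336 and 22112 counts). Both libraries without IL-3 were the lower ones, and the log2 fold change was -0.69 (SE 0.34, 95% interval -1.57 to 0.18, edgeR adjusted p = 0.86). Arpc3, a smaller subunit bound near ARP3 (chromosome 5 from 122391878 to 122406179, plus strand), had 110 and 138 FPKM with IL-3 (20388 and 25930 counts), against 127 and 148 FPKM without it (19610 and 25592 counts). Its groups overlapped, with a log2 fold change of 0.10 (SE 0.36, 95% interval -0.82 to 1.02, edgeR adjusted p = 0.99) that was -0.15 without Abl1ko/IL3+ replicate 1.

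For both actin-related subunits the libraries with IL-3 lay further apart from each other than the group means did. Actr2 lies on chromosome 11 from 20062304 to 20112913 and Actr3 on chromosome 1 from 125392905 to 125435727, both on the minus strand. Actr2 had 55.8 and 28.3 FPKM with IL-3 (19445 and 9997 counts), against 48.2 and 57.1 FPKM without it (14034 and 18638 counts), a log2 fold change of 0.34 (SE 0.38, edgeR adjusted p = 0.946) that was 0.026 without Abl1ko/IL3+ replicate 2 and 0.76 without Abl1ko/IL3+ replicate 1. Actr3 had 53.0 and 25.1 FPKM with IL-3 (16459 and 7902 counts), against 25.7 and 37.4 FPKM without it (6666 and 10865 counts), a log2 fold change of -0.30 (SE 0.41, edgeR adjusted p = 0.967) that was 0.18 without Abl1ko/IL3+ replicate 1. For both genes Abl1ko/IL3+ replicate 2 was low, and the libraries with IL-3 were 1.64-fold and 1.76-fold apart in normalized CPM, while the fitted differences between groups were 1.27-fold and 1.23-fold. The median gene with 10 CPM or more was 1.56-fold apart between these 2 libraries, and 1.21-fold between the Abl1ko/IL3- libraries.

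Set against each other within a library, the subunits differed in proportion between libraries. Arpc2 held 54.2% and 51.7% of the FPKM summed over Arpc2, Arpc3, Actr2 and Actr3 with IL-3, and 36.9% and 41.7% without it. Arpc3 held 23.0% and 34.9% with IL-3, against 39.9% and 35.5% without it. Actr2 held 11.7% and 7.13% with IL-3, against 15.2% and 13.7% without it, and Actr3 between 6.34% and 11.1% over the 4 libraries. The groups did not overlap for the shares of Arpc2, Arpc3 (34.9% against 35.5% at the closest) and Actr2, and overlapped for Actr3. The shares of a library add up to the whole, so a lower share of Arpc2 raises the others, and they are not separate results. In FPKM itself the groups overlapped for Arpc3 and Actr2. The ratio of Actr2 to Actr3 in FPKM was 1.05 and 1.13 with IL-3, against 1.87 and 1.53 without it. These proportions were looked at after the values were seen, and they are shares of RNA and not of protein in the complex. The exact permutation test, two-sided, gave p = 0.333 for the shares of Arpc2, Arpc3 and Actr2 and for this ratio. That is the smallest p that 2 against 2 libraries allow, so the test cannot separate the groups.

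**Figure D3:**
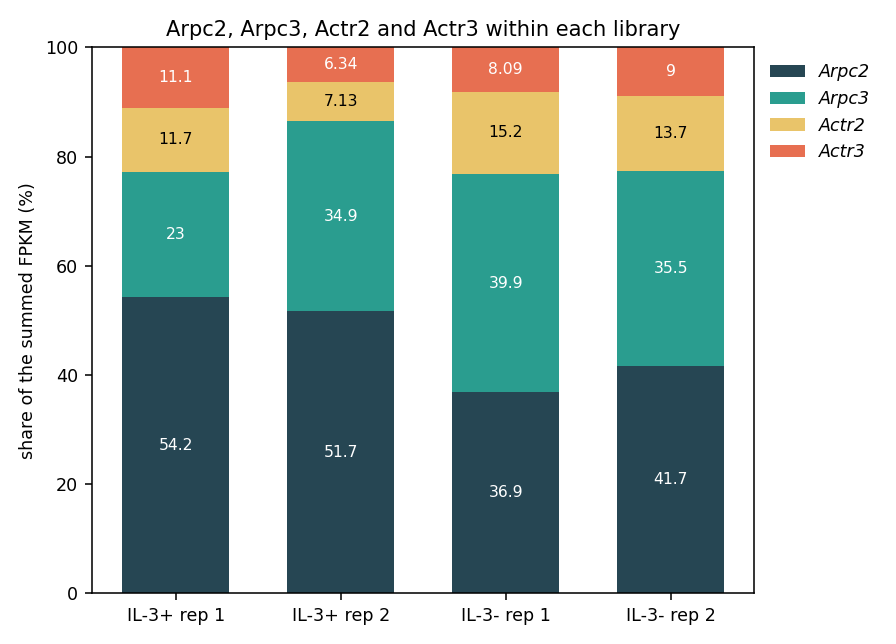
Share of each subunit gene in the FPKM summed over Arpc2, Arpc3, Actr2 and Actr3 (vertical axis, percent), 1 bar for each library. The Arpc2 part is 54.2% and 51.7% in the libraries with IL-3 and 36.9% and 41.7% in the others.

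Hcls1, whose product HS1 takes the place of cortactin in blood cells (chromosome 16 from 36934983 to 36963212, plus strand), had 103 and 74.3 FPKM with IL-3 (17401 and 12738 counts), against 55.6 and 60.5 FPKM without it (7861 and 9587 counts). The groups did not overlap, and the lower library with IL-3 was 1.42 times the higher one without it in normalized CPM. The log2 fold change was -0.61 (SE 0.30, 95% interval -1.40 to 0.17, edgeR adjusted p = 0.86), with values from -0.71 to -0.49 under 12 alternatives. Cttn (chromosome 7 from 144435733 to 144471009, minus strand) was near the limit of detection: 17 and 0 counts were found with IL-3, against 10 in each library without it. The exact Poisson 95% intervals, which cover counting error only, were 9.90 to 27.2 counts for the library with 17 4.80 to 18.4 for each library with 10, and 0 to 3.69 for the library with 0. The floor of 3 counts used for folds stood for 0.0497 CPM in that library. Its log2 fold change was 0.50 (SE 1.70, edgeR adjusted p = 0.99), or -0.47 without Abl1ko/IL3+ replicate 2, so a difference in Cttn between the groups was not detectable at this depth. Hcls1 exceeded Cttn in FPKM by 1711-fold in Abl1ko/IL3+ replicate 1 and by 1475-fold and 1598-fold in the Abl1ko/IL3- replicates. In Abl1ko/IL3+ replicate 2 it was 7099-fold higher with Cttn set at that floor of 3 counts. The upper limit of the exact interval, 3.69 counts, is above the floor, so this fold is not a lower bound. Hcls1 held 99.9% or more of the summed FPKM of the pair in every library, and its mean share differed by -0.036 percentage points between the groups (exact permutation test, two-sided, p = 0.333, n = 2 per group).

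Across the 4 libraries the 9 measurable genes differed in profile. Relative to each gene's own mean on the log2 scale, 7 of the 9 were highest in Abl1ko/IL3+ replicate 1, and 5 were lowest in Abl1ko/IL3- replicate 1. The share of all genes with such a profile was not computed. Over all genes tested, Abl1ko/IL3+ replicate 1 lay apart on the first principal component (43.3% of the variance), at -112 against 9.40 to 76.4. Abl1ko/IL3+ replicate 2 lay apart on the second (37.5%), at -109 against 11.3 to 49.2. Abl1ko/IL3+ replicate 1 was also the library with the highest sum of mast cell and basophil markers, but the list was divided. Cpa3, Fcer1a, Gata2 and Prss34 were highest there, while Mcpt8 was lowest, with 18.3 FPKM against 31.4 to 60.6 in the other libraries. Ms4a2 had 0.623 FPKM there, against 0.623 to 0.969 in the others. The part of such cells in these profiles was not tested. The root mean square difference between centred log2 profiles was 0.063 between Was and Arpc2, and of 9245 other genes with a mean of 10 CPM or more 0.108% were closer to Was than Arpc2 was. Hcls1 and Wasf2 were both at 0.18 from Was, with 2.50% and 2.55% of genes closer, while Wipf1 was at 0.68, with 67.2% closer. Wipf1 was nearest to Wasl among these genes, at 0.18. The 3 genes most like Was were Prkch, Me2 and Axin1, at 0.039 to 0.041, and the 3 most like Hcls1 were Scaf1, Ubap2l and Sik3, at 0.025 to 0.028. With 4 libraries such likeness is a description of these libraries alone.

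Of a list of 62 further genes, 58 were in the table and 54 passed the expression filter. None of the 54 passed in edgeR after adjustment (background 0%) and 2 did before it, 1 lower and 1 higher, and DESeq2 called none. Both Abl1ko/IL3- libraries were lower than both Abl1ko/IL3+ libraries for 10 of the 54 and higher for 7, against the shares of 17.9% and 19.4% of all genes. The median log2 fold change of the 54 was -0.14, with 18 positive and 36 negative values, against 7946 positive and 8589 negative over all genes tested.

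Of the remaining ARP2/3 subunit genes, 5 of the 6 tested had positive fold changes, as did 7946 of all 16535 genes tested. Of the 6, 3 were higher in both Abl1ko/IL3- libraries and 1 was lower, against 19.4% and 17.9% of all genes. The median of the 6 was 0.63 on the log2 scale. Arpc5, a small peripheral subunit, had the highest mean and the largest fold change: 72.5 and 36.5 FPKM with IL-3, against 177 and 61.8 FPKM without it, a log2 fold change of 1.18 (SE 0.64, edgeR adjusted p = 0.871), with groups that overlapped. The alternative subunits Arpc1a and Arpc1b, named after their values were seen, had log2 fold changes of 0.53 and -0.48. Arpc1b over Arpc1a in FPKM was 1.98 and 1.07 with IL-3, against 0.621 and 0.815 without it.

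Upstream of the complex 7 of 9 WASP interactors and 6 of 7 genes of the WAVE complex had negative fold changes, as did 8589 of all 16535 genes tested. Both Abl1ko/IL3- libraries were lower for 1 of the 9 and 2 of the 7, against 17.9% of all genes. They were higher for 1 of the 9, the groups of the rest overlapped, and none passed the test. Rac2, the Rac GTPase of blood cells, had 360 and 311 FPKM with IL-3, against 205 and 275 FPKM without it, a log2 fold change of -0.50 (edgeR adjusted p = 0.898). Arhgef7, an exchange factor for Rac and Cdc42, had a log2 fold change of -0.62 with groups that did not overlap. In the WAVE complex Cyfip2, which binds Rac within the complex, had 26.5 and 10.2 FPKM with IL-3, against 9.51 and 1.39 FPKM without it (log2 fold change -1.67, edgeR adjusted p = 0.886), while the small subunit Brk1, the most abundant at 182 FPKM on average, had 0.092. Abi2, another WAVE complex subunit, was 1 of the 2 genes with an unadjusted p-value under 0.05 in edgeR and is named for that, with 1.90 and 1.48 FPKM with IL-3, against 0.769 and 0.765 FPKM without it (log2 fold change -1.14, edgeR adjusted p = 0.815). Among WASP interactors the adaptor Nck1 had 8.80 and 4.48 FPKM with IL-3, against 1.19 and 6.02 FPKM without it, a log2 fold change of -0.90, and the adaptor Grb2 had -0.13. Dbnl, from the class of cortactin partners, had 67.0 and 61.7 FPKM with IL-3, against 34.7 and 50.3 FPKM without it. Its log2 fold change was -0.63 (edgeR adjusted p = 0.87).

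Around the filament itself the values went in both directions. Tmsb4x, the gene of thymosin beta 4, which sequesters actin monomers, had 695 and 586 FPKM with IL-3, against 997 and 2037 FPKM without it, a log2 fold change of 1.21 (SE 0.45, edgeR adjusted p = 0.841), and it was the other gene with an unadjusted p-value under 0.05. Evl, which promotes filament elongation, had 6.12 and 0.0966 FPKM with IL-3, against 0.331 and 0.282 FPKM without it, so that 1 library with IL-3 stood above the other 3, and the log2 fold change was -3.21 (SE 1.67, edgeR adjusted p = 0.87). Of the genes that limit branching or take branches apart, Coro1a had a log2 fold change of -0.031 and Coro1b of -0.21. Of the WASH complex, which drives ARP2/3 on endosomes, Washc4 had -0.73 and Washc5 -0.33, with groups that overlapped. The adjusted p-values of these 4 genes were between 0.933 and 0.999 in edgeR.

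**Figure D4:**
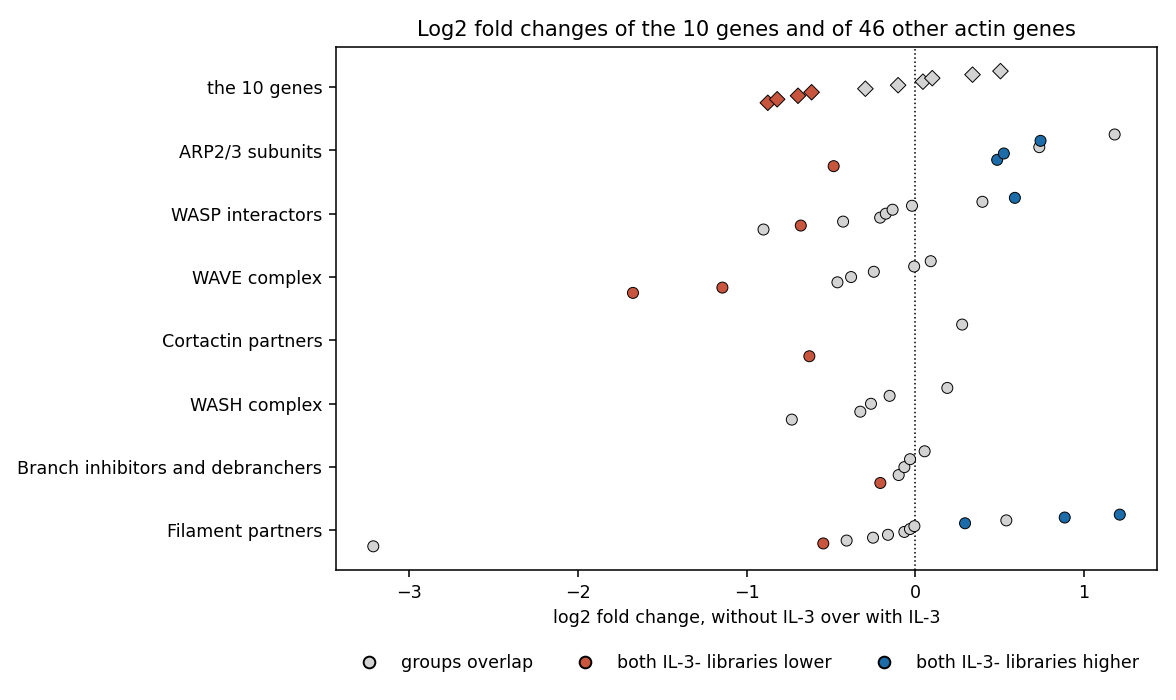
Log2 fold change (horizontal axis, without IL-3 over with IL-3) of the 10 genes (diamonds) and of 46 of the 54 other actin genes by class (circles). Red marks genes lower in both libraries without IL-3, blue those higher in both, and grey those whose groups overlap in normalized CPM. Of the 10 genes 4 are red and none is blue, and of the 46 others 7 are red and 7 blue.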

How the data were processed

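RNA-seq of 4 libraries of 32Dcl3-Abl1ko cells was analysed, 2 with and 2 without IL-3, grouped by the labels. The authors depleted total RNA of ribosomal RNA, and per their methods aligned reads to GRCm38 with Rsubread and deposited raw counts per gene from featureCounts. The submitters' processing notes name STAR and Cuffdiff with mm10 instead, so the aligner and the tool that made the counts are uncertain. The authors also deposited FPKM values, and which of these tools made them is not known. The FPKM values served to compare levels between genes. The sources used here give no versions and no strand or read-pair setting. Of counts from 1 to 20, 59.2% were even. In GENCODE M21 (GRCm38) no exon of the 10 genes overlapped an exon of another gene, the end of Arpc3 differed from that in the table, and an Arpc2 pseudogene, AC154544, had at most 15 counts.

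Counts were filtered with filterByExpr, normalized by TMM (giving the normalized CPM) and tested with the quasi-likelihood test of edgeR 4.0.16 in R 4.3.3, two-sided, with Benjamini-Hochberg adjustment over 16535 genes and a threshold of 0.05. Standard errors and intervals derive from the F statistic. Shares were compared by exact permutation. Alternatives were DESeq2 1.42.0, library size only, no filter, 10 counts in every library, the replicate block, limma 3.58.1 on log2(FPKM + 1) and log2(FPKM + 0.1), and leaving out each library, with the crossed pairing added after seeing the data. The steps were tested on simulated counts. No pair of libraries agreed within sampling noise (chi-square per degree of freedom at least 303).

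The genes and lists were chosen with earlier results of these data known. Named genes were the 10, the most abundant gene and the largest fold change of each class, and the 3 genes nearest in profile to Was and Hcls1. Cttn was under the 10 CPM needed for that. The results for 1 class of upstream genes and for 1 cell marker are not reported here.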

Additional observations from a re-analysis of the deposited data

How the results depend on the processing

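The number of the 10 genes past the adjusted threshold was 0 in all 12 alternatives, and so was that of the 54 other actin genes, but 2 libraries against 2 give little power. The lowest adjusted p-value among the 10 was 0.233, without Abl1ko/IL3+ replicate 2. Over all genes the number was 0 in edgeR and limma except without Abl1ko/IL3- replicate 1, so that leaving out each library gave between 0 and 15 genes, and it was 271 with DESeq2's Wald test; the cause was not tested. The median log2 fold change of the 10 genes ranged from -0.66 to 0.017 when a library was left out, with 0.017 without Abl1ko/IL3+ replicate 1 and 0.0018 without Abl1ko/IL3- replicate 1, and from -0.29 to -0.077 otherwise. Was, Wasf2, Arpc2, Hcls1 and Actr2 kept their direction in every alternative, but leaving out a library gave -1.02 to -0.64 for Was, -1.13 to -0.55 for Wasf2, -0.93 to -0.49 for Arpc2, -0.71 to -0.49 for Hcls1 and 0.026 to 0.76 for Actr2. Wipf1 reversed with the replicate block (0.065), with the crossed pairing (0.065), with limma on log2(FPKM + 1) (0.071) and log2(FPKM + 0.1) (0.082), and without Abl1ko/IL3+ replicate 1 (0.86) or Abl1ko/IL3- replicate 1 (0.14). Arpc3 (-0.15) and Actr3 (0.18) reversed without Abl1ko/IL3+ replicate 1. Wasl reversed without Abl1ko/IL3+ replicate 2 (-0.45) or Abl1ko/IL3- replicate 2 (-0.0086), and Cttn without Abl1ko/IL3+ replicate 2 (-0.47). Leaving out a library gave -0.45 to 0.81 for Wasl, -0.67 to 0.86 for Wipf1, -0.15 to 0.43 for Arpc3, -0.65 to 0.18 for Actr3 and -0.47 to 6.37 for Cttn. The share of Was in Was and Wasl differed by -10.2 percentage points in CPM, which leaves gene length out, and by -7.45 to -2.68 when a library was left out. That of Hcls1 in Hcls1 and Cttn differed by -0.065 to -0.0067.

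The replicate numbers share no stated origin, and the deviations from the group mean correlated at -0.209 between libraries of the same number (14031 genes). With the replicate block 0 of the 10 and 0 of all genes passed (548 unadjusted), against 978 unadjusted without it, and with the pairs crossed 0 and 0 (1136 unadjusted). With 10 counts in every library Cttn was left out. Fits without a library leave 1 sample in a group, which is assumed to vary like the other group.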
